A study of Mus musculus with 6 samples.

Results

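The genes described here are the subunits of oxidative phosphorylation, the mitochondrial machinery that turns the energy of electrons from nutrients into ATP. They were chosen by gene symbol from the 26071 genes of the authors' deposited table, with 3 pseudogenes left out. The symbols were Nduf (A, B, C, S and V series), Sdh, Uqcr, Cox5 to Cox8 and Atp5 names and the mitochondrially encoded Nd, Co, Atp and Cytb genes. This gave 90 genes, of which 77 are encoded in the nucleus and 13 in the mitochondrial genome. RNA was measured in endothelial cells of tumours grown from 4T1, a transplantable mouse mammary carcinoma line, in the inguinal mammary fat pad of Balb/c females. The mice were 8 weeks old at the injection of tumour cells and 10 weeks old at harvest, when the tumours had grown for 2 weeks. Each mouse received 1E12 gold nanoparticles of 50 nm with a coat of 5 kDa polyethylene glycol and the dye Cy5, through the tail vein 1 h before harvest. Cells without CD45, a leukocyte marker, and with CD31, which marks endothelium, were split by flow sorting into a nanoparticle-positive fraction (NP+) and a nanoparticle-negative fraction (NP-). There were 3 tumours (numbered MET-106 to MET-108), and each gave 1 NP+ and 1 NP- library, so both fractions came from injected mice. The comparison asks whether endothelial cells that carried nanoparticles differed in these transcripts from those that did not.

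Oxidative phosphorylation runs through 5 protein complexes of the inner mitochondrial membrane. Complex I (the Nduf genes) takes electrons from NADH and complex II (the Sdh genes) from succinate, complex III (Uqcr) passes them to cytochrome c, and complex IV (Cox) hands them to oxygen. Complex V (Atp5), the ATP synthase, uses the proton gradient that complexes I, III and IV build. Most subunits are made from nuclear genes and imported, whereas the mitochondrial genome encodes a few core subunits of complexes I, III, IV and V. Endothelial cells are known for drawing much of their ATP from glycolysis while still using mitochondria for biosynthesis and signalling. Among the nuclear genes, 35 belong to complex I, 4 to complex II, 8 to complex III, 14 to complex IV and 16 to complex V. The mitochondrial genes comprise 7 of complex I, 1 of complex III, 3 of complex IV and 2 of complex V.

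The libraries held between 20856410 and 58089600 gene counts, and all 90 genes passed the filter on low counts. Levels below are in CPM, counts divided by the library total of tested genes and its TMM factor, and the 3 values of a group always run in the order MET-106, MET-107, MET-108. The 8 endothelial markers summed to between 9087 and 11233 CPM in NP+ libraries and between 6122 and 8799 CPM in NP- libraries, with none at 0. The NP- library of MET-106 stood apart: its 7 fibroblast markers summed to 3793 CPM, against 57.2 to 129 CPM in the other NP- libraries and 13.5 to 56.3 CPM in NP+ libraries. Its 7 epithelial markers summed to 566 CPM, against 14.6 and 30.1 CPM in the other NP- libraries and at most 11.7 CPM in NP+ libraries. The 7 macrophage markers summed to between 14.8 and 21.8 CPM in NP+ libraries and between 36.9 and 117 CPM in NP- libraries, and 6 lymphocyte markers to between 3.26 and 3.87 CPM in NP+ and between 7.97 and 32.5 CPM in NP-. Erythroid markers stayed between 3.82 and 51.2 CPM in every library. In sorted bulk samples, fewer cells of a type and less RNA per cell cannot be told apart.

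Regulatory sequence was examined first, because many of these genes are known to share sites for nuclear respiratory factor 1 (NRF1) and for GA-binding protein, a factor of the ETS family. The RefSeq table of promoters (build GRCm38.p6, 250 bases before to 50 after a start) matched 65 of the 77 nuclear genes with 70 promoters. The letters GCGCANGCG, the core of the NRF1 site, were present on either strand in 20 of these 65 genes (30.8%), and in 7.03% of all 27025 genes of the table. The letters CCGGAAG, an ETS site, were present in 16 genes (24.6%), and in 9.93% of all genes. At least 1 of the motifs was found in 46.2% of the 65 genes and in 15.5% of all genes. A match is a description of the letters and not evidence of binding, and genes that share a start region are not independent. Of the 3 promoters shown, Sdha carries 3 NRF1 cores and belongs to the gene with the smallest p among the nuclear genes. Cox6a1 carries both motifs, and Atp5b, the gene with the highest CPM of the nuclear genes, carries neither. Capitals mark the motif matches, and in Cox6a1 the first run of capitals holds a match on each strand that overlap. The promoters are on chr13:74350191-74350490 (minus strand), chr5:115348909-115349208 (minus strand) and chr10:128083057-128083356 (plus strand).
Sdha: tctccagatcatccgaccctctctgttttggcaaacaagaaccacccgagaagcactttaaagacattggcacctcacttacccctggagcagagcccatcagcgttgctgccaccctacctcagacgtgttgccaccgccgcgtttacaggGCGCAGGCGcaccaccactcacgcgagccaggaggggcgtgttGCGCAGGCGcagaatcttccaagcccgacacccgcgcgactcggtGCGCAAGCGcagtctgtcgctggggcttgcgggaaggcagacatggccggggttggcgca
Cox6a1: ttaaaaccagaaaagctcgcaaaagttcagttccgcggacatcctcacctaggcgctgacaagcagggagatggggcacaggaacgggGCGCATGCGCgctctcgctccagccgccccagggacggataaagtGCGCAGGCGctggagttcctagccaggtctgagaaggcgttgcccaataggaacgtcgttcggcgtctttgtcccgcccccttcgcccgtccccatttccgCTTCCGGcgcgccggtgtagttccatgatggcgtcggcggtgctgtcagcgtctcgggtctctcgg
Atp5b: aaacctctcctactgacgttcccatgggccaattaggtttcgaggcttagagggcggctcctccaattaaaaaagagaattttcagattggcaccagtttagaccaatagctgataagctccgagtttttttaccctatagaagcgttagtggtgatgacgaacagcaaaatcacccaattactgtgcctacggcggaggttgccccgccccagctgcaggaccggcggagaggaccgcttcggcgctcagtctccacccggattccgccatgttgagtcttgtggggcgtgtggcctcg

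Genes with and without these motifs had nearly the same median fold change, which is a description with no test. The median log2 fold change of NP+ over NP- was 0.19 for the 20 genes with an NRF1 core and 0.20 for the 45 without. It was 0.20 for the 16 genes with an ETS site and 0.18 for the 49 without.

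Nuclear subunit genes had a slightly higher mean level in NP+ libraries, and none passed the test. Their summed level was 13560, 14358 and 14195 CPM in NP+ libraries, against 14107, 10550 and 10661 CPM in NP- libraries. The NP+ libraries lay close together, and the NP- library of MET-106 lay among them, so the groups overlapped. The NP+ mean of 14038 ± 422 CPM stood against an NP- mean of 11772 ± 2022 CPM (SD, n = 3 each), a ratio of 1.19, which was 1.32 without the NP- library of MET-106. As a share of all gene counts, the same genes took 1.18%, 1.36% and 1.26% in NP+ libraries and 1.51%, 1.22% and 1.16% in NP- libraries, a ratio of means of 0.978. The direction therefore depended on how the libraries were scaled.

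**Figure D1:**
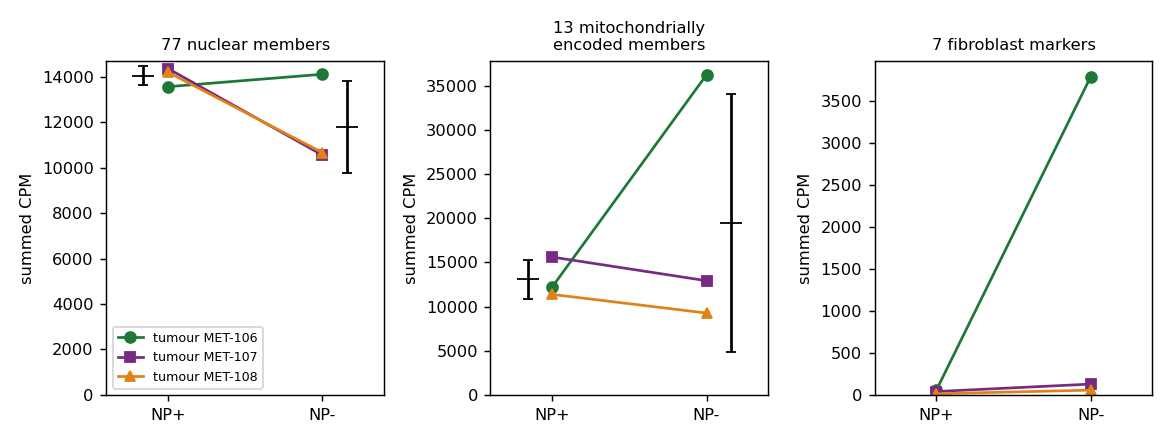
Summed CPM of the 77 nuclear genes, the 13 mitochondrially encoded genes and 7 fibroblast markers in each library, with lines joining the NP+ and NP- libraries of a tumour and black bars for the mean ± SD of 3 libraries (no bars for the markers). The NP- library of MET-106 is level with the NP+ libraries for nuclear genes and stands at 36241 CPM for mitochondrially encoded genes and at 3793 CPM for fibroblast markers.

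The log2 fold change was above 0 in 72 of the 77 nuclear genes, with a median of 0.20 and a middle range of 0.10 to 0.28. Without the NP- library of MET-106 the median was 0.40. Over all 23989 genes tested, 9788 were above 0 and the median was -0.29. Among genes of like level the picture was different, and the median of the subunit genes lay below it. Of the 4168 tested genes with a mean of at least 50 CPM, 3786 were above 0 and the median was 0.33, and of the 72 nuclear subunit genes at that level, 71 were above 0 and the median was 0.20. With at least 5 CPM, the SD of the log2 fold change was 0.15 over 74 nuclear subunit genes and 0.76 over 10825 tested genes. It was 0.46 over the 4168 tested genes with at least 50 CPM. The coefficient of variation between libraries had a median over nuclear subunit genes of 7.17% in NP+ and 20.5% in NP-. Over tested genes with at least 50 CPM this median was 9.58% in NP+ and 20.8% in NP-.

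**Figure D2:**
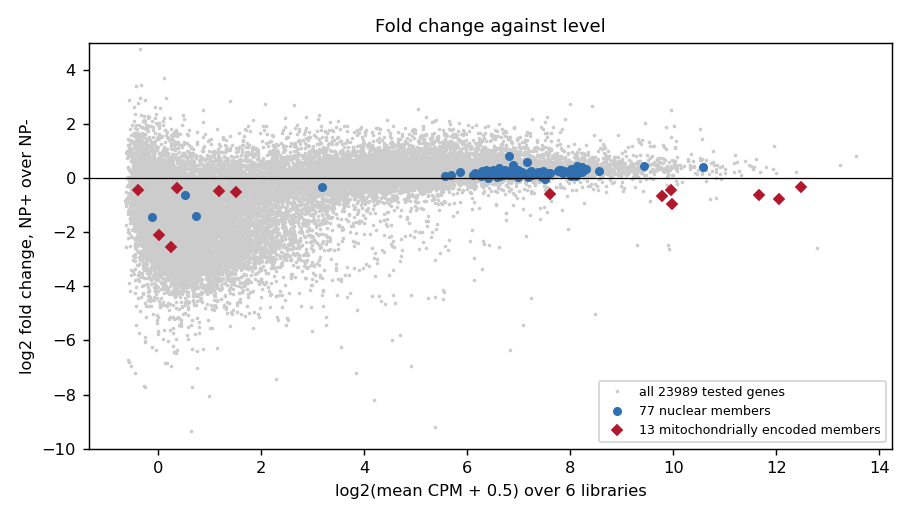
Log2 fold change of NP+ over NP- against log2(mean CPM + 0.5) for all 23989 tested genes (grey), the 77 nuclear genes (blue circles) and the 13 mitochondrially encoded genes (red diamonds). Most nuclear subunit genes form a narrow band around the median of 0.20, though the 77 run from -1.46 to 0.80. All 13 mitochondrially encoded genes lie below 0.

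With edgeR's quasi-likelihood test and Benjamini-Hochberg adjustment over all genes, 0 of 77 nuclear and 0 of 13 mitochondrially encoded genes had an adjusted p under 0.05, where 0.0292% of all tested genes did. The smallest adjusted p was 0.163 among nuclear genes and 0.265 among mitochondrially encoded genes. With the tumour as a replicate block the count was again 0 for both, against 0.0625% of all tested genes. DESeq2 also called 0 of the 90 genes, against 13.5% of all genes with an adjusted p, and limma-voom called 0, against 0.0750%. At an unadjusted edgeR p under 0.05, 4 nuclear genes (5.19%) were higher and 0 lower, against 8.01% and 15.4% of all tested genes. Of the 4168 tested genes with at least 50 CPM, 29.1% were higher and 50 genes were lower at that p. With the tumour block 3 nuclear genes were higher at an unadjusted p under 0.05, against 7.85% of all tested genes. Of the genes with at least 50 CPM, 1105 were higher in that fit. The authors' deposited table likewise has 0 of 77 nuclear genes and 0 of 12 mitochondrially encoded genes with an adjusted p under 0.05, where 13.2% of its genes with an adjusted p have one.

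All 3 NP+ libraries lay above all 3 NP- libraries for 11 of the 77 nuclear genes (14.3%), against 13.3% of all tested genes and 41.2% of those with at least 50 CPM. None lay wholly below, against 15.6% of all tested genes. In 3 of 3 tumours, 13 nuclear genes (16.9%) were higher in NP+, against 20.0% of all tested genes and 56.8% of those with at least 50 CPM. Cox7b2 and Atp5s were lower in 3 of 3 tumours, against 30.4% of all tested genes. The 2 shares in the higher direction were near those of all tested genes and below those of genes with at least 50 CPM. The lower direction was rarer among subunit genes than among all tested genes, which include many genes at low counts, and 113 of the 4168 genes with at least 50 CPM were lower in 3 of 3 tumours.

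The tumours differed. The median log2 ratio within a tumour (CPM + 0.5) over nuclear genes was -0.16 in MET-106, 0.42 in MET-107 and 0.40 in MET-108. The NP+ library was the higher one for 13, 74 and 72 of the 77 genes in these tumours. For tested genes with at least 50 CPM the same medians were 0.38, 0.38 and 0.31, so the medians of the 2 sets were of opposite sign in MET-106 only. In 36 of the 77 genes the NP- library of MET-106 had the highest level of all 6 libraries. Transcript length moved with this result. Among genes with at least 5 CPM and under 1 kb of exons, the median log2 ratio in MET-106 was -0.19 for 363 tested genes and -0.24 for 20 nuclear subunit genes. Over 4 kb it was 0.34 for 5891 tested genes and -0.09 for 9 subunit genes. The part of transcript length and of the fibroblast and epithelial markers in the MET-106 values was not tested.

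**Figure D3:**
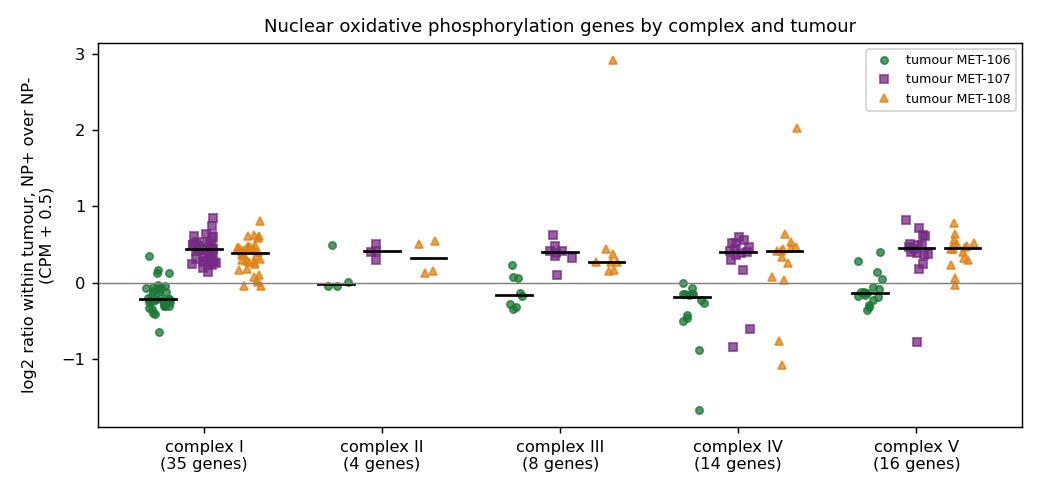
Log2 ratio of NP+ over NP- within each tumour (CPM + 0.5) for the 77 nuclear genes, grouped by complex, with a black line at the median of each complex and tumour. Most MET-106 points lie below 0 and most MET-107 and MET-108 points lie above it, and the points near 2.91 and 2.03 in MET-108 are Uqcrfs1 and Cox5a.

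Complex I, the entry point for electrons from NADH, had a median log2 fold change of 0.20 over its 35 nuclear genes. The 7 core subunits, which together carry the flavin and iron-sulfur clusters, had a median of 0.26, the 12 accessory genes of the A series 0.18 and the 10 of the B series 0.13. Ndufs1, which encodes the largest iron-sulfur subunit, stood at 144, 129 and 143 CPM in NP+ libraries, against 112, 101 and 81.5 CPM in NP- libraries. All NP+ libraries lay above all NP- libraries, and NP+ was higher in each tumour. The log2 fold change was 0.50 (SE 0.18, edgeR adjusted p = 0.166, blocked adjusted p = 0.209). Ndufv1, which encodes the flavin-binding subunit, stood at 146, 132 and 141 CPM in NP+ libraries and 130, 108.3 and 106.6 CPM in NP- libraries. These groups were also apart, by a narrow margin (log2 fold change 0.28, SE 0.17, adjusted p = 0.316). Ndufb5, an accessory subunit, stood at 101, 118 and 110 CPM in NP+ libraries against 106.1, 77.5 and 72 CPM in NP- libraries, with the MET-106 pair reversed.

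The nuclear genes with the highest levels per length in complex I were Ndufa1, Ndufb9 and Ndufa8, at 344, 279 and 274 CPM per kb over all 6 libraries. Ndufa8, a subunit of the intermembrane space side, stood at 251, 275 and 248 CPM in NP+ libraries, against 259, 192 and 188 CPM in NP- libraries. Ndufa1 stood at 131, 169 and 139 CPM in NP+ libraries and 174, 108.2 and 143 CPM in NP- libraries. Ndufb9 stood at 163, 190 and 184 CPM in NP+ libraries and 256, 160 and 135 CPM in NP- libraries. In all 3 genes the groups overlapped, and the NP- library of MET-106 lay above its NP+ partner. Ndufb9 was the one nuclear complex I gene with a log2 fold change below 0, at -0.04 (SE 0.24).

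Complex II couples the citric acid cycle to the respiratory chain and has no mitochondrially encoded subunit. Sdha, its flavoprotein, stood at 350, 294 and 324 CPM in NP+ libraries, against 247, 240 and 222 CPM in NP- libraries. The groups did not overlap, and the log2 fold change of 0.45 (SE 0.16, edgeR adjusted p = 0.163, blocked adjusted p = 0.222) had the smallest p among nuclear genes. Sdhb, the iron-sulfur subunit, stood at 194, 208 and 218 CPM in NP+ libraries against 199, 146 and 195 CPM in NP- libraries, which overlapped. The membrane anchors Sdhc and Sdhd had log2 fold changes of 0.26 (SE 0.21) and 0.17 (SE 0.18). Sdhc averaged 87.9 ± 3.42 CPM in NP+ libraries and 73.2 ± 18.5 CPM in NP- libraries, and Sdhd 200 ± 5.79 CPM in NP+ libraries and 177 ± 30 CPM in NP- libraries (SD, n = 3).

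Complex III had a median log2 fold change of 0.17 over 8 nuclear genes. Uqcrc1 and Uqcrc2 encode its core proteins. Uqcrc1 stood at 423, 365 and 435 CPM in NP+ libraries, against 358, 340 and 335 CPM in NP- libraries, without overlap (log2 fold change 0.24, SE 0.16, adjusted p = 0.362). Uqcrc2 stood at 138, 143 and 150 CPM in NP+ libraries and 132, 107.1 and 133 CPM in NP- libraries, also without overlap, and 22.7% of its 100-base windows occur letter for letter in other annotated genes. The small accessory genes Uqcrb, Uqcr11 and Uqcr10 had the highest levels per length among the nuclear genes of complex III (296, 279 and 220 CPM per kb). Their log2 fold changes were 0.08, 0.08 and 0.18, with overlapping groups in each.

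Uqcrfs1, the Rieske iron-sulfur protein of complex III, had the largest log2 fold change among the nuclear genes, with 1 NP- library far below the others. It stood at 137, 145 and 142 CPM in NP+ libraries, against 131, 93.9 and 18.5 CPM in NP- libraries. The NP+ libraries were level, and the low library was the NP- library of MET-108. The log2 fold change was 0.80 (SE 0.54, edgeR adjusted p = 0.374, blocked adjusted p = 0.237). With DESeq2 and the tumour block it was 1.28 (SE 0.44, adjusted p = 0.0321), the only nuclear gene so called, where 4.79% of genes with an adjusted p were called higher. Without the NP- library of MET-108 the NP- mean of Uqcrfs1 was 112 CPM.

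Cox5a, a complex IV subunit, showed the same drop, at 162, 183 and 172 CPM in NP+ libraries against 180, 123 and 41.8 CPM in NP- libraries (log2 fold change 0.58, SE 0.43, adjusted p = 0.408). So did Cyc1, cytochrome c1 of complex III, whose symbol lies outside the naming rule. It stood at 188, 190 and 198 CPM in NP+ libraries against 160, 107.8 and 48.2 CPM in NP- libraries (log2 fold change 0.87, SE 0.36, adjusted p = 0.20). Levels under 0.5 times those of every other library were counted after these values had been seen. They were found in the NP- library of MET-108 for 2 of the 72 nuclear subunit genes with at least 50 CPM (2.78%), which are Uqcrfs1 and Cox5a. The same library had 189 such genes among the 4168 tested genes at that level (4.53%), against at most 19 in any other library.

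**Figure D4:**
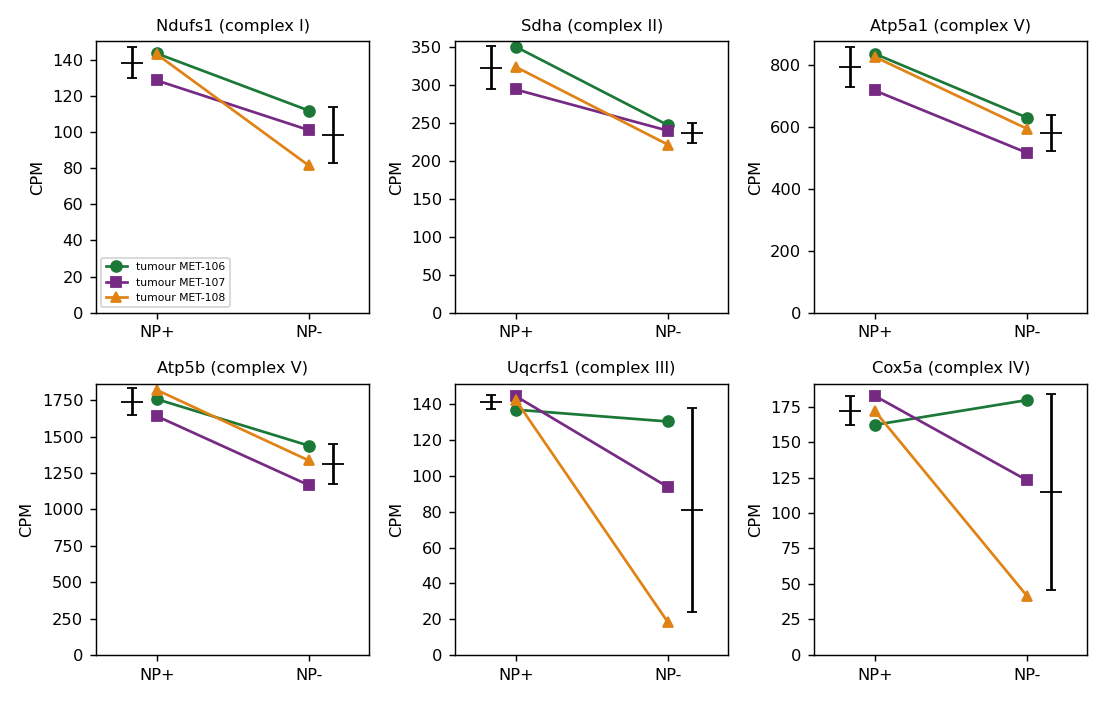
CPM by library of Ndufs1, Sdha, Atp5a1, Atp5b, Uqcrfs1 and Cox5a, with lines joining the libraries of a tumour and black bars for the mean ± SD of 3 libraries. In the first 4 genes every NP+ library lies above every NP- library, while Uqcrfs1 and Cox5a drop to 18.5 and 41.8 CPM in the NP- library of MET-108 alone.

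Complex IV, cytochrome c oxidase, had a median log2 fold change of 0.12 over 14 nuclear genes. None of these had NP+ libraries wholly above NP- libraries, against 13.3% of all tested genes and 41.2% of those with at least 50 CPM. Cox8a, Cox6b1 and Cox6a1 had the highest levels per length of all nuclear genes, at 426, 425 and 394 CPM per kb. Cox6b1, a subunit on the intermembrane space side, stood at 313, 356 and 307 CPM in NP+ libraries and 327, 248 and 256 CPM in NP- libraries. Cox6a1 stood at 274, 318 and 297 CPM in NP+ libraries and 302, 246 and 223 CPM in NP- libraries. Cox8a stood at 239, 262 and 245 CPM in NP+ libraries and 279, 189 and 180 CPM in NP- libraries. In each of the 3 the groups overlapped through the NP- library of MET-106, and the log2 fold changes were 0.20, 0.23 and 0.20 for Cox8a, Cox6b1 and Cox6a1. Cox5b, a zinc-binding subunit, had 0.26 (SE 0.19).

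Several complex IV subunits have tissue-restricted isoforms, and the ubiquitous form held nearly all the counts of each pair. Cox7a1, the heart and skeletal muscle form, took 0.46 ± 0.0413% of the summed CPM of Cox7a1 and Cox7a2 in NP+ and 0.772 ± 0.521% in NP- (SD, n = 3). Cox7a2 itself averaged 159 ± 12.8 CPM in NP+ libraries and 148 ± 16.6 CPM in NP- libraries. The testis forms Cox6b2 and Cox7b2 took 0.195% and 0.171% of their pairs in NP+, and 0.574% and 0.669% in NP-. Cox7b, the ubiquitous partner of Cox7b2, averaged 122 ± 15.5 CPM in NP+ libraries and 103 ± 26.8 CPM in NP- libraries. Each of the 3 restricted forms was under 3 CPM in every library, and their log2 fold changes were -0.64 (SE 0.88) for Cox7a1, -1.39 (SE 0.84) for Cox6b2 and -1.46 (SE 1.11) for Cox7b2. The muscle forms Cox6a2 and Cox8b and the testis form Cox8c match the naming rule but lie outside the authors' table, with at most 13 counts in any library. Skeletal muscle markers summed to between 5.05 and 6.59 CPM in NP+ libraries and between 18.3 and 28.1 CPM in NP- libraries.

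A wider gap was measured for Ndufa4l2, a paralog of the complex IV subunit Ndufa4 that is known as a hypoxia-induced gene and as a gene of pericytes. Its symbol lies outside the naming rule. It stood at 1.26, 1.00 and 1.05 CPM in NP+ libraries, against 15.4, 4.57 and 4.51 CPM in NP- libraries, without overlap. The log2 fold change was -2.89 (SE 0.62, edgeR adjusted p = 0.102, blocked adjusted p = 0.0977). Ndufa4 itself stood at 167, 192 and 167 CPM in NP+ libraries and 236, 156 and 125 CPM in NP- libraries, so Ndufa4l2 took 0.632 ± 0.116% of the pair in NP+ and 4.16 ± 1.75% in NP-. The symbols of Cox4i1 and Cox4i2 also lie outside the naming rule. Cox4i1, the ubiquitous form of subunit 4, stood at 432, 467 and 456 CPM in NP+ libraries and 445, 373 and 403 CPM in NP- libraries. Its paralog Cox4i2 stood at 1.21, 0.565 and 0.201 CPM in NP+ libraries against 4.74, 1.25 and 1.01 CPM in NP- libraries (log2 fold change -1.83, SE 0.95, adjusted p = 0.271). The 8 pericyte markers summed to between 84.1 and 98.4 CPM in NP+ libraries and between 134 and 469 CPM in NP- libraries, 7 of 8 were lower in NP+ and none was at 0. Their part in the Ndufa4l2 and Cox4i2 values was not tested.

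Complex V, the ATP synthase, had the highest median among the complexes, at 0.30 over 16 nuclear genes. Its 5 genes of the F1 head had a median log2 fold change of 0.29, the 4 of the peripheral stalk 0.32, the 3 of the c ring 0.31 and 3 accessory genes of the membrane part 0.07. Atp5b, the catalytic beta subunit, stood at 1757, 1640 and 1820 CPM in NP+ libraries, against 1438, 1166 and 1336 CPM in NP- libraries. Atp5a1, the alpha subunit, stood at 836, 717 and 826 CPM in NP+ libraries, against 630, 516 and 594 CPM in NP- libraries. In both genes every NP+ library lay above every NP- library, and NP+ was higher in each tumour. The log2 fold changes were 0.41 for Atp5b (SE 0.17, edgeR adjusted p = 0.198, blocked adjusted p = 0.247) and 0.45 for Atp5a1 (SE 0.17, edgeR adjusted p = 0.171, blocked adjusted p = 0.209).

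Of the other 14 nuclear complex V genes, 12 had overlapping groups and 2 did not. Every NP+ library thus lay above every NP- library in 4 of the 16 genes. The same was so for 13.3% of all tested genes and 41.2% of those with at least 50 CPM. Atp5d, the delta subunit of the F1 part, was one without overlap, at 235, 244 and 243 CPM in NP+ libraries against 226, 190 and 173 CPM in NP- libraries (log2 fold change 0.29, SE 0.17, adjusted p = 0.305), and was named for that after its values had been seen. Atp5c1, the gamma subunit of the rotor, stood at 314, 355 and 339 CPM in NP+ libraries and 352, 260 and 218 CPM in NP- libraries. Atp5g2, a gene of the c ring, stood at 89.7, 96.5 and 85.7 CPM in NP+ libraries and 81.2, 67.7 and 69.9 CPM in NP- libraries, also without overlap. For Atp5g2, 86.4% of 100-base windows occur in other annotated genes, so its count is uncertain. Atp5s, the coupling factor B gene, stood at 9.69, 5.88 and 7.45 CPM in NP+ libraries and 10.6, 10.4 and 7.64 CPM in NP- libraries, with a log2 fold change of -0.32 (SE 0.35). Atp5j and Atp5g3 were named after their values had been seen, because they passed the test once the NP- library of MET-106 was left out. Their log2 fold changes were then 0.76 (edgeR adjusted p = 0.0392) and 0.70 (edgeR adjusted p = 0.0466), where 3.48% of tested genes were called higher. With all 6 libraries they were 0.39 (adjusted p = 0.332) and 0.34 (adjusted p = 0.398).

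Longer members had larger log2 fold changes. Among the 74 nuclear genes with at least 5 CPM, Spearman's rho of the log2 fold change with coding length was 0.44 and Pearson's r 0.41, given as a description across genes that share libraries. The median was 0.24 for the 37 genes with the longer coding sequence and 0.16 for the other 37, split at 426 coding bases. The same rank correlation with the mean level was 0.32. Over tested genes with at least 5 CPM the medians were 0.16 under 1 kb of exons, 0.22 from 1 to 2 kb, 0.28 from 2 to 4 kb and 0.23 above, against 0.16, 0.17, 0.24 and 0.31 for the subunit genes. Up to 4 kb the medians of both sets rose with length.

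The mitochondrially encoded genes had lower means in NP+, and in CPM the direction of that difference rested on 1 NP- library. Their summed level was 12219, 15607 and 11377 CPM in NP+ libraries, against 36241, 12925 and 9266 CPM in NP- libraries. The NP- library of MET-106 was far above the rest, and the other 5 libraries overlapped. The NP+ mean of 13068 ± 2239 CPM stood against an NP- mean of 19477 ± 14633 CPM (SD, n = 3 each), a ratio of 0.671, which was 1.18 without the NP- library of MET-106. As a share of all gene counts, the ratio of means was 0.556, and 0.948 without that library, so on that scale the direction did not turn. All 13 genes were highest in that library. The log2 fold change was below 0 in 13 of 13 genes, with a median of -0.58, and above 0 in 11 of 13 without that library, with a median of 0.31. Without the NP- library of MET-108 the median was -0.96, and 7 of 13 genes were lower at an unadjusted p under 0.05, against 13.6% of the genes then tested. The ratio of the mitochondrial to the nuclear sum was 0.901, 1.09 and 0.801 in NP+ libraries and 2.57, 1.23 and 0.869 in NP- libraries. The same NP- library held 3793 CPM of fibroblast and 566 CPM of epithelial markers, whose part in its mitochondrial level was not tested.

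Among the 7 abundant genes, the NP- library of MET-106 was between 1.89 and 3.08 times the highest other library. mt-Co1, the catalytic subunit of complex IV, stood at 4721, 5607 and 4785 CPM in NP+ libraries, against 10598, 4689 and 3781 CPM in NP- libraries (log2 fold change -0.34, SE 0.36). mt-Cytb, cytochrome b of complex III, stood at 3167, 3696 and 2498 CPM in NP+ libraries, against 10897, 2959 and 2318 CPM in NP- libraries (log2 fold change -0.79, SE 0.53). mt-Nd1, a membrane subunit of complex I, stood at 2235, 3248 and 2166 CPM in NP+ libraries, against 7472, 2660 and 1705 CPM in NP- libraries (log2 fold change -0.63, SE 0.48). All 3 genes were higher in NP+ in MET-107 and MET-108 and lower in MET-106, and their edgeR adjusted p lay between 0.369 and 0.571.

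The other abundant genes are all of complex I. mt-Nd2 stood at 625, 857 and 563 CPM in NP+ libraries and 2729, 885 and 390 CPM in NP- libraries. mt-Nd4 stood at 584, 890 and 566 CPM in NP+ libraries and 1979, 751 and 492 CPM in NP- libraries, and mt-Nd5 at 754, 1087 and 672 CPM in NP+ libraries and 2111, 805 and 492 CPM in NP- libraries. mt-Nd6, the one protein gene on the light strand, stood at 128, 216 and 122 CPM in NP+ libraries and 440, 171 and 84.6 CPM in NP- libraries. In every one of these genes the groups overlapped. The makeup of the mitochondrial pool also differed in the NP- library of MET-106, where mt-Co1 took 29.3% of the CPM of the 7 genes, against 35.9% to 42.1% in NP+ libraries and 36.3% and 40.8% in the other NP- libraries. mt-Nd2 took 7.53% there, against 4.95% to 5.50% in NP+ libraries and 6.85% and 4.21% in the other NP- libraries.

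The remaining 6 mitochondrial genes, mt-Nd3, mt-Nd4l, mt-Co2, mt-Co3, mt-Atp6 and mt-Atp8, lay between 0.0336 and 5.08 CPM in every library. For 5 of them the sequence is held almost whole by an unprocessed pseudogene on chromosome 1 in the GENCODE M21 annotation. The share of 100-base windows found letter for letter in other annotated genes was 97.6% for mt-Nd3, 98.5% for mt-Nd4l, 99.5% for mt-Co2, 99.9% for mt-Co3 and 99.5% for mt-Atp6. It was 0% for mt-Atp8, which is short, overlaps mt-Atp6 and is also near 0. Copies outside annotated transcripts were not sought, so the low level of mt-Atp8 is uncertain as a measure of its transcript. Among the abundant genes the share was 60.8% for mt-Nd4, 30.8% for mt-Co1, 3.19% for mt-Nd2 and 0% for mt-Nd1, mt-Nd5, mt-Nd6 and mt-Cytb. A read that matches both places cannot be given to one of them, and the authors' rule for such reads is not given in the sources used here. The low levels of the 5 genes are therefore uncertain as measures of their transcripts.

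The stretches below show this, from bases 301 to 360 of 3 transcripts on the plus strand of GRCm38. The mt-Co2 stretch (chrM:7313-7372) is also in Gm13341 and Gm28661, and the mt-Co3 stretch (chrM:8907-8966) in Gm28437. The mt-Cytb stretch (chrM:14445-14504), of an abundant gene, is in no other annotated transcript. No base is in capitals, since whole stretches were compared.
mt-Co2: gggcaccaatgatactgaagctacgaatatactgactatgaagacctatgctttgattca
mt-Co3: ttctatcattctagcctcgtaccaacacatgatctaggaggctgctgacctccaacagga
mt-Cytb: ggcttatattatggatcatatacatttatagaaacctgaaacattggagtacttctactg

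The copies on chromosome 1 carried counts of their own. Summed over 7 of them, the level was 70.0, 143 and 76.8 CPM in NP+ libraries, against 253, 98.6 and 58.4 CPM in NP- libraries. Gm28437, the copy of mt-Co3, stood at 28.4, 50.5 and 29.9 CPM in NP+ libraries and 102, 34.3 and 22.7 CPM in NP- libraries, above mt-Co3 itself in all 6 libraries. The NP- library of MET-106 was highest for the sum and for 6 of the 7 copies. The sum averaged 96.4 CPM over NP+ libraries and 137 CPM over NP- libraries, or 78.5 CPM without the NP- library of MET-106.

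**Figure D5:**
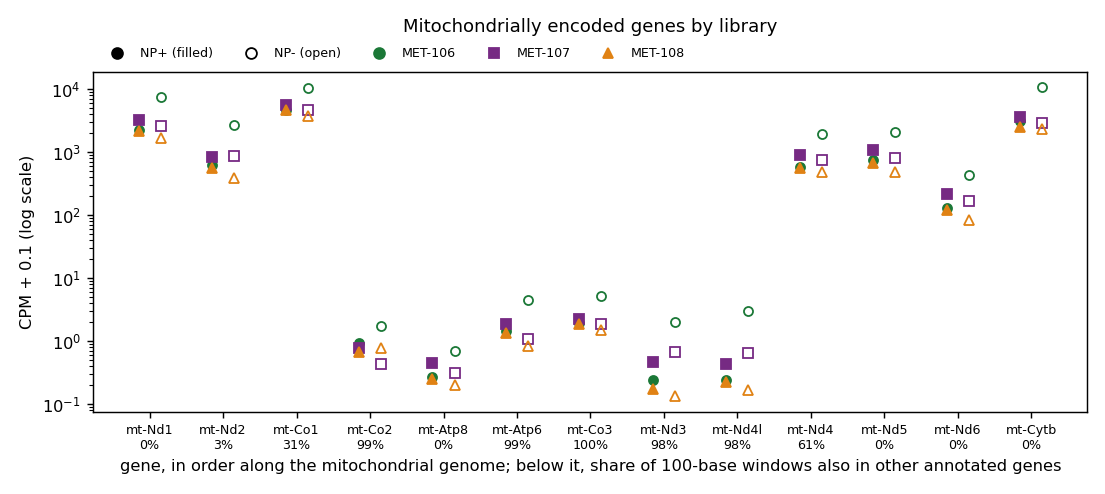
CPM + 0.1 on a log axis for the 13 mitochondrially encoded genes in each library (NP+ filled, NP- open), in their order along the mitochondrial genome, with the share of 100-base windows also found in other annotated genes under each name. The NP- library of MET-106 is the highest point of every gene, 7 genes lie at 84.6 CPM or above, and 6 lie at 5.08 CPM or below.

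Other mitochondrial gene lists showed where the subunits stood within the organelle. None of their genes passed the edgeR test. Of 18 genes of the citric acid cycle and pyruvate dehydrogenase, 18 had a log2 fold change above 0, 8 of them at an unadjusted p under 0.05, with a median of 0.35. Cs, citrate synthase, stood at 366, 316 and 369 CPM in NP+ libraries, against 231, 185 and 244 CPM in NP- libraries, without overlap (log2 fold change 0.67, SE 0.18, adjusted p = 0.126). All 10 genes of cristae, fusion and fission were above 0, 2 of them at an unadjusted p under 0.05, with a median of 0.30. Mfn1, which fuses outer membranes, had a log2 fold change of 0.94 (SE 0.23, adjusted p = 0.121), and Dnm1l, which divides mitochondria, 0.44 (SE 0.16, adjusted p = 0.171).

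Genes of the mitochondrial ribosome had a median log2 fold change of 0.25, with 73 of 78 above 0, 9 higher and 0 lower at an unadjusted p under 0.05. Mrps30 and Mrps2, genes of mitochondrial ribosomal proteins, had 1.76 (SE 0.53, adjusted p = 0.142) and 0.64 (SE 0.20, adjusted p = 0.144). Of 50 tested assembly factors, 37 were above 0, 6 were higher and 0 lower at an unadjusted p under 0.05, and the median was 0.16. Lrpprc, which stabilises mitochondrial mRNAs, stood at 53.8, 50.0 and 44.3 CPM in NP+ libraries and 29.3, 25.4 and 11.9 CPM in NP- libraries (log2 fold change 1.15, SE 0.32, adjusted p = 0.130). Sdhaf1, which helps load iron-sulfur clusters into complex II, had 1.72 (SE 0.50, adjusted p = 0.135). Of 17 regulators of mitochondrial biogenesis, 12 were above 0, with 4 higher and 1 lower at an unadjusted p under 0.05. Among them Gabpb1, a subunit of GA-binding protein, had 0.72 (SE 0.18, adjusted p = 0.123) and Polg, the mitochondrial DNA polymerase, 1.10 (SE 0.31, adjusted p = 0.134). Of 10 subunits outside the naming rule, 8 were above 0, with 1 higher (Cyc1) and 1 lower (Ndufa4l2) at an unadjusted p under 0.05, and Higd1a had 0.35 (adjusted p = 0.298). On the list of mitochondrial rRNAs and tRNAs, 17 of 22 genes were tested, and only 4 had a mean of at least 5 CPM. The highest NP+ mean was 14.7 CPM, of the tRNA gene mt-Tl1, so no abundant rRNA was among them. The tested genes had a median of -0.30, with 16 below 0 and 0 at an unadjusted p under 0.05. Their within-tumour medians were -1.71 in MET-106, 0.45 in MET-107 and 0.44 in MET-108, so only the median of MET-106 was below 0. The 2 with the smallest p, mt-Tq and mt-Tl1, had -0.79 (SE 0.55) and -0.50 (SE 0.47). These lists can be read beside 8.01% of all tested genes higher and 15.4% lower at an unadjusted edgeR p under 0.05. Of the 4168 tested genes with at least 50 CPM, 3786 were above 0, with a median of 0.33. Among those, 29.1% were higher and 50 genes were lower at the same unadjusted p.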

How the data were processed

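RNA was measured in 6 SMART-Seq v4 libraries, 3 NP+ and 3 NP-, read as pairs of 150 bp, per the labels' protocols. The labels tie 1 NP+ and 1 NP- library to every tumour, and their deviations from the group means correlated at 0.28, 0.21 and 0.02 in MET-106, MET-107 and MET-108. Nothing in the labels gives more than 1 library per tumour and fraction. The main fit did not use the pairs. Its p-values rest on the spread between libraries within fractions, pooled over both fractions for each gene. That estimate is also drawn toward the trend over all tested genes. Only the fits with the tumour as a replicate block used the pairs.

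The deposited counts are whole numbers per gene. The submitters' processing notes name STAR 2.5.2b, Subread 1.5.2 with featureCounts, Trimmomatic 0.036 and DESeq2, with mouse build GRCm38. Not given in the sources used here are the gene annotation's release, the strand setting and the rule for multi-mapped reads. SMART-Seq v4 does not mark strand. The authors' deposited table gives a signal per library, which equals the count over 1 size factor for 100% of values within 0.01 reads. Its log2 fold changes, by the authors, run NP- over NP+ in sign for 99.9% of genes. Its raw and adjusted p-values are the authors' too. It was used to choose the genes and for the authors' calls.

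Counts were tested with edgeR 4.0.16 (quasi-likelihood, TMM, filterByExpr by group with a minimum count of 10, no block) in R 4.3.3, and p-values were adjusted by Benjamini-Hochberg over 23989 genes. The SE is the log2 fold change over the square root of F. Within-tumour ratios use a pseudocount of 0.5 CPM. Alternatives were RLE, upper-quartile and total-count scaling, other filters, DESeq2 1.42.0, limma-voom (limma 3.58.1), the tumour as a replicate block, an offset for exonic length, and each library left out. Copies were sought as 100-base windows shared with other GENCODE M21 transcripts. The tests were tested on simulated data. The planted changes were larger than those of most subunit genes, and the spread was below the main fit's common estimate over all genes. That run therefore gives no power or error rate for changes of the size described here. Counts carry no molecular identifiers.

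The genes, lists and settings were chosen with earlier results of these data known. Named were all mitochondrially encoded genes, in each complex the 3 nuclear genes with the highest mean CPM per kb and the 3 with the smallest p, isoform pairs, and 2 genes per further list with the smallest p and at least 5 CPM. The values of 1 gene that this rule names are not reported here.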

Additional observations from a re-analysis of the deposited data

How the results depend on the processing

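No nuclear or mitochondrially encoded subunit gene was called lower in any setting, and none of the mitochondrially encoded genes was called higher. Nuclear genes called higher numbered 1 in the DESeq2 fit with the replicate block, and 0 to 2 when each library was left out in turn. The paired fit with the replicate block changed no other call of a subunit gene, and its medians of the log2 fold change were 0.21 for nuclear and -0.27 for mitochondrially encoded genes. The calls over all tested genes were 7, and 21 with upper-quartile scaling, 11 with total counts, 1211 with no low-count filter, 105 with at least 5 CPM in 3 libraries, 3976 with DESeq2, 18 with limma-voom, 15 with the replicate block, 4245 with the replicate block in DESeq2, 0 with the exonic length offset, 0 with that offset and the replicate block, and 0 to 2320 with each library left out.

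The sign of the nuclear median depended on the scaling. It was 0.20 with TMM, -0.03 with upper-quartile scaling (28 of 77 genes above 0), -0.09 with total counts (15 of 77) and -0.06 with at least 5 CPM in 3 libraries (23 of 74). The median of all tested genes was -0.29, -0.53, -0.59 and -0.02 in these settings, so nuclear genes lay 0.49, 0.49 and 0.50 above it in the first 3 and at -0.04 from it in the last. The nuclear median was 0.60 with the exonic length offset and 0.64 with that offset and the replicate block, which gave 25 and 55 of 77 nuclear genes higher at an unadjusted p under 0.05, against 12.6% and 17.7% of all tested genes. Without the NP- library of MET-106 that number was 41, against 12.3% of all tested genes, and the nuclear median was 0.40. The mitochondrial median was then 0.31, and with the offset and the replicate block it was 0.24, while without the NP- library of MET-108 it was -0.96. Of the 77 nuclear genes, 72 had at least 50 CPM, and shares over tested genes of like level are not given for these settings. In the main fit, 29.1% of tested genes with at least 50 CPM were higher at an unadjusted edgeR p under 0.05, against 8.01% of all tested genes. The counts of 25, 55 and 41 are therefore not set against genes of like level. The cause of the shifts between settings was not tested. With 3 tumours, differences of the size of most nuclear genes could not be separated from the spread between libraries.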
